A study of Mus musculus with 9 samples.

Results

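The 42 genes described here encode the machinery that licenses, starts and carries out DNA replication, with 3 regulators of entry into S phase. They were chosen by name, and all 42 were found among the 24445 genes of the table and were deep enough to test among 11622. Their levels were read in mouse bone marrow-derived macrophages, cells grown in culture from marrow of C57Bl/6 mice. The study asked how an ester of D-2-hydroxyglutarate (the D2HG octyl ester), a cell-permeable form of a small metabolite acid, bears on the response to lipopolysaccharide (LPS), a bacterial cell wall component. Each of 3 groups held 3 RNA sequencing libraries. Veh_N cells received vehicle in place of both agents over the same times, Veh_LPS cells received vehicle for 1 h before 24 h of LPS, and D2HG_LPS cells received the ester for 1 h before 24 h of LPS. All 3 groups were wild-type cells, and no group given the ester without LPS was analysed here. Whether the 3 libraries of a group are separate animals, cultures or preparations is not in the labels, and the p-values therefore reflect the spread between libraries alone, which may be technical.

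Before a cell can copy its genome, the origin recognition complex with Cdc6 and Cdt1 loads the ring of Mcm2 to Mcm7 onto DNA, a step called licensing. Cyclin E with its kinase, Cdc45, the GINS complex and Mcm10 then turn the loaded ring into an active helicase, and polymerases extend the new strands with the sliding clamp PCNA, which replication factor C loads. Many of these genes are targets of the E2F transcription factors, which the retinoblastoma protein family holds back until a cell commits to S phase. Macrophages grown from marrow divide in response to macrophage colony-stimulating factor, and LPS is known to stop that division.

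The promoters of the members were searched for 4 words of the E2F site, TTTCCCGC, TTTGGCGC, TTTCGCGC and TTTGCCGC, on both strands. The search used RefSeq windows of 300 bases, 250 before and 50 after the annotated start, in the mouse build GRCm38.p6. Of the 42 genes, 34 had a window, and Gins1, Gins2, Gins4, Mcm4, Pole, Ccne2, Prim2 and Rfc2 did not. At least 1 word stood in the windows of 13 of these 34 genes (38.2%), while 744 of all 32851 RefSeq windows held one (2.26%). Here and for the words below, a member counted where any of its windows held the word. Lig1, Fen1, Mcm7 and Uhrf1 had several windows, whereas the background counts windows, so the shares differ in unit. The 13 genes were divided by their change under LPS into 6 of the 11 higher genes, 6 of the 16 lower genes and 1 of the 7 genes that were not called. In 8 genes a word began before the start. An 80-base stretch of each is printed here, 5′ to 3′ on the strand of the gene, because these near-identical words lie before genes that changed in opposite directions. Capitals mark the words, which overlap each other in Mcm5 and in the first of the marked runs of Mcm6. Orc1 (chr4:108579374-108579453, plus strand), Mcm5 (chr8:75109322-75109401, plus strand), Mcm6 (chr1:128359741-128359820, minus strand) and Rfc3 (chr5:151651209-151651288, minus strand) were higher with LPS. Cdc6 (chr11:98907977-98908056, plus strand), Mcm7 (chr5:138172005-138172084, minus strand) and Uhrf1 (chr17:56304092-56304171, plus strand) were lower, and Pola1 (chrX:93632250-93632329, minus strand) was not called.
Orc1: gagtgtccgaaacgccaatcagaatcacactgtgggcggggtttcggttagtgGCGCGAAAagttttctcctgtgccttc
Mcm5: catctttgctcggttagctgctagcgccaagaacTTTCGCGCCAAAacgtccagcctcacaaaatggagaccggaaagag
Mcm6: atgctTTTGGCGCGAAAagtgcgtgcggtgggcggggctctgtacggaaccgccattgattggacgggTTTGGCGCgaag
Rfc3: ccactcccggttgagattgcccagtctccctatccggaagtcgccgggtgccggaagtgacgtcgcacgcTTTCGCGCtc
Cdc6: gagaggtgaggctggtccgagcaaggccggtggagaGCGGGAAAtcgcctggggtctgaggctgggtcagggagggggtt
Mcm7: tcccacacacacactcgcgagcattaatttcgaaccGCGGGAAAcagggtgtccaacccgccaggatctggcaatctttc
Uhrf1: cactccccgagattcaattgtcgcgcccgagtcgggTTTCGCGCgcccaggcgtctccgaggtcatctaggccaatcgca
Pola1: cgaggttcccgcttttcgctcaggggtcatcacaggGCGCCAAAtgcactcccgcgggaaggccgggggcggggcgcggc
The same windows held CCAAT, the word bound by factor NF-Y, in 19 of 34 genes (55.9%) against 37.4% of all windows. They held TTTGAA, the cell cycle homology word, in 3 of 34 (8.82%) against 17.9%. A match is a description of letters and does not show that a factor binds there.

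Depth ran from 9451258 to 13759935 counts per library with 1 transcript taken per gene. Levels are given as CPM, read counts divided by library totals adjusted by the trimmed mean of M values (TMM), and a gene was called where edgeR's quasi-likelihood test gave a Benjamini-Hochberg adjusted p below 0.05 over all 11622 genes. Macrophage markers summed to 12200 to 15700 CPM in the 9 libraries. The marrow progenitor markers summed to 6.74 to 7.72 CPM in Veh_N and 1.37 to 2.22 CPM under LPS, mostly Kit (1 of 6 called lower), with Hoxa9 at 0. The neutrophil markers summed to 27.4 to 34.8 CPM in Veh_N and 60.5 to 83.2 CPM under LPS, with 4 of 9 called higher, although the defining Ly6g and Cxcr2 did not exceed 0.827 CPM in any library. Stromal and endothelial markers summed to 0.862 to 1.65 CPM in Veh_N and 15.8 to 23.6 CPM under LPS, mainly Pecam1 (3 of 8 called higher), with Lum at 0. Dendritic cell markers summed to 1.3 to 2.9 CPM and 18.2 to 20.7 CPM (3 of 6 called higher), and lymphoid and erythroid markers to at most 1.88 and 0.0988 CPM. Over all tested genes 35% were called higher and 38.9% lower in Veh_LPS than in Veh_N, so the counts of called markers are descriptions. The part of these cell types in the changes of the replication genes was not tested. In bulk RNA, fewer cells in S phase and less RNA per cell cannot be told apart.

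With LPS after vehicle, replication genes moved in both directions. Of the 42 members, 13 were called higher and 18 lower in Veh_LPS than in Veh_N, and 11 were not called. That is 73.8% called, against a background of 73.9% of all tested genes (35% higher and 38.9% lower), so the share of calls is not a result about these genes. Their median log2 fold change was -0.20 and that of all tested genes -0.07, with a range from -2.90 for Cdc6 to 2.20 for Mcm10. The libraries of Veh_N and Veh_LPS did not overlap in 31 members, 12 higher and 19 lower, where 73.5% of all tested genes did not overlap (34.5% higher and 39% lower). At least 2-fold changes were called in 5 higher genes (Mcm10, Rfc3, Pcna, Ccne1 and Tyms) and in 7 lower genes (Cdc6, Pole2, Uhrf1, Rrm2, Pold1, E2f1 and Mcm2).

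**Figure D1:**
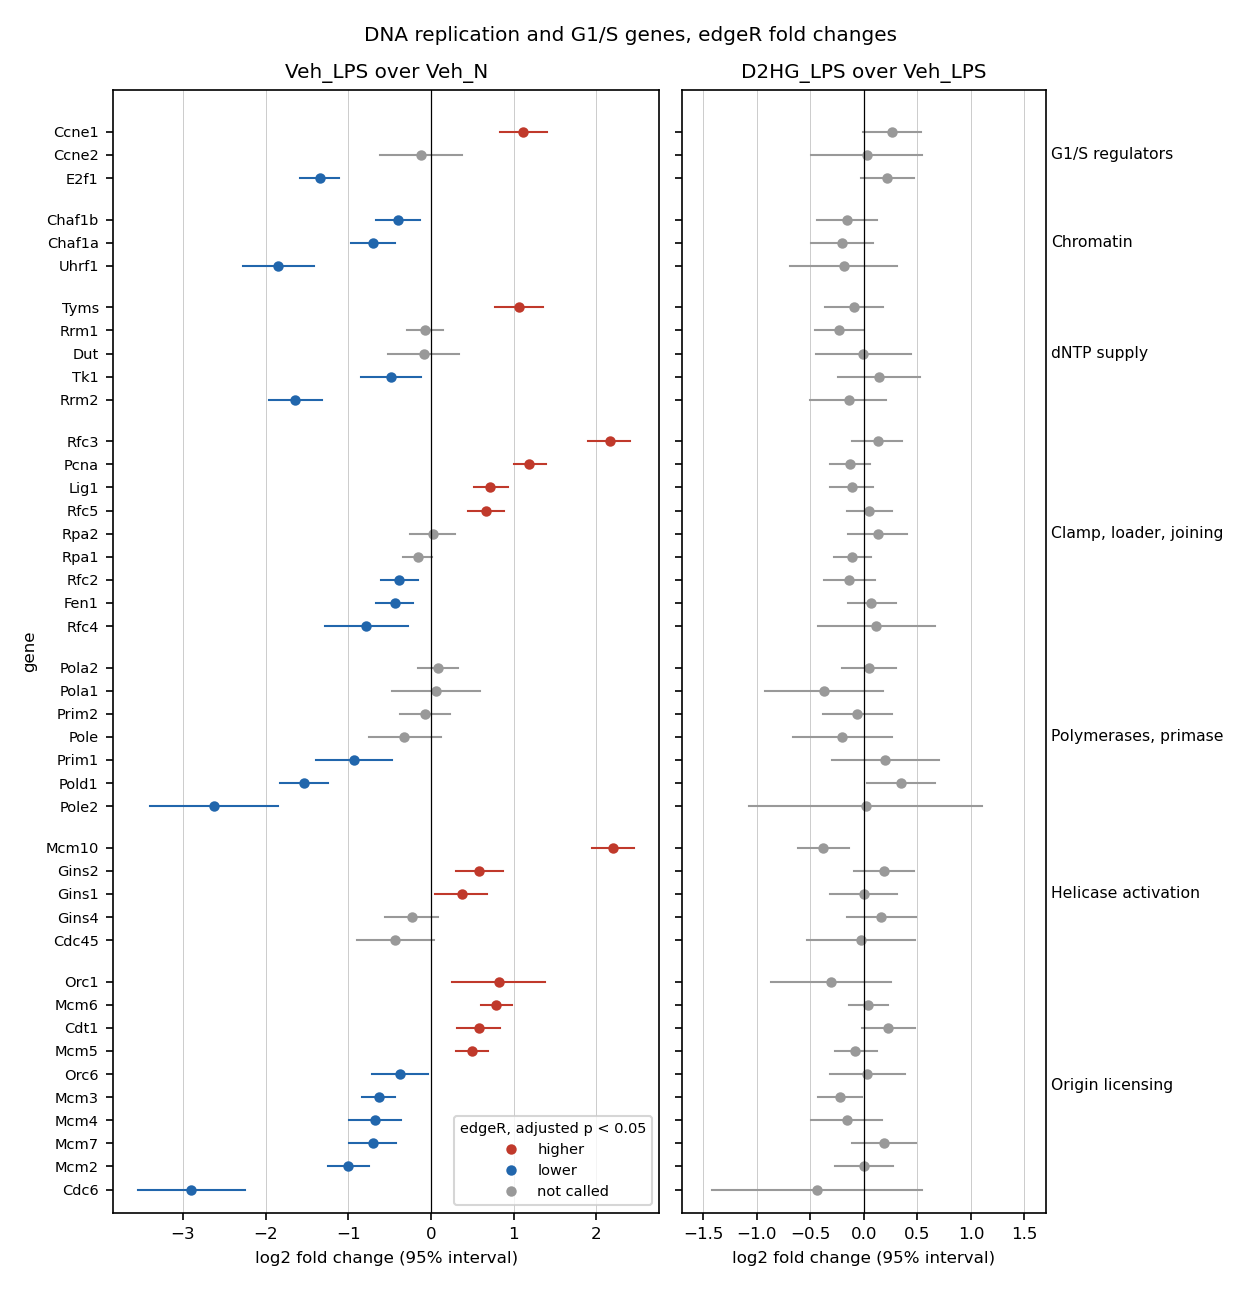
Log2 fold change (x axis) of each of the 42 genes (y axis, grouped by role) for Veh_LPS over Veh_N on the left and D2HG_LPS over Veh_LPS on the right. Points are edgeR estimates with TMM scaling, bars are 95% intervals, and colour gives the call; on the left 13 genes are higher and 18 lower, and on the right none of the 42 is called.

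The licensing genes were divided, with 4 of 10 called higher, 6 lower and a median of -0.50. Cdc6, the ATPase that helps load the helicase ring, had 7.38, 6.29 and 4.47 CPM in Veh_N, 0.889, 0.743 and 0.788 CPM in Veh_LPS and 0.683, 0.768 and 0.296 CPM in D2HG_LPS. All 6 libraries with LPS lay far below the lowest library without it. The change was 7.44-fold lower with LPS after vehicle, a log2 fold change of -2.90 ± 0.30 (SE) at a Benjamini-Hochberg adjusted p = 1.6e-06 by edgeR. It rests on 7 to 9 counts per library in Veh_LPS against 57 to 107 in Veh_N. Cdt1, which acts with Cdc6 in loading the ring, went the other way. Its levels were 26.5, 27.5 and 27.0 CPM in Veh_N, 45, 43 and 33 CPM in Veh_LPS and 50.2, 43.6 and 48.3 CPM in D2HG_LPS, with no overlap between cells with and without LPS. The log2 fold change was 0.58 ± 0.12 (edgeR, Benjamini-Hochberg adjusted p = 0.000608), but -0.09 with library totals in place of TMM.

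Both subunits of the origin recognition complex in the list were near the threshold. Orc1, its largest subunit, had 3.65, 2.02 and 2.43 CPM in Veh_N and 3.65, 5.09 and 5.51 CPM in Veh_LPS. One Veh_N library equalled the lowest Veh_LPS library, so the groups touched. The log2 fold change was 0.82 ± 0.26 (edgeR, Benjamini-Hochberg adjusted p = 0.0115), and the call was lost without Veh_N replicate 2 (0.64, adjusted p = 0.0581). Orc6, its smallest subunit, had 9.38, 10.6 and 9.33 CPM in Veh_N and 6.72, 8.70 and 7.26 CPM in Veh_LPS, a log2 fold change of -0.37 ± 0.15 (edgeR, Benjamini-Hochberg adjusted p = 0.0425). The groups did not overlap, yet its call was lost without any 1 of 6 libraries: Veh_N replicate 2 or 3, Veh_LPS replicate 1 or 3, and D2HG_LPS replicate 1 or 2 (log2 fold change -0.40 to -0.29). Of the subunits outside the members, Orc4 was called higher at 1.13 and Orc5 lower at -0.92, both without overlap (edgeR, Benjamini-Hochberg adjusted p = 0.000426 and 0.00422). Orc2 and Orc3 were not called.

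The 6 subunits of the helicase ring, which act as 1 ring with a copy of each, did not change together. Mcm6 had 93, 88.5 and 74 CPM in Veh_N, 148, 148 and 146 CPM in Veh_LPS and 151, 156 and 149 CPM in D2HG_LPS. Mcm5 had 37.0, 38.5 and 32.1 CPM in Veh_N, 50.0, 53.7 and 48.7 CPM in Veh_LPS and 48.1, 47.9 and 48.4 CPM in D2HG_LPS. For both subunits every library with LPS was above every library without it. Mcm6 was higher by 0.79 ± 0.09 on the log2 scale (edgeR, Benjamini-Hochberg adjusted p = 3.21e-06) and Mcm5 by 0.50 (0.000248). With library totals as the scaling Mcm6 stood at 0.12 and Mcm5 at -0.17, and neither was called.

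Mcm2 had 22.6, 25.7 and 25.7 CPM in Veh_N, 11.9, 13.9 and 11.3 CPM in Veh_LPS and 12.7, 12.3 and 11.9 CPM in D2HG_LPS. Mcm7 had 20.9, 22.4 and 18.6 CPM in Veh_N, 12.8, 11.9 and 13.2 CPM in Veh_LPS and 17.1, 13.1 and 13.2 CPM in D2HG_LPS. Mcm4 had 47.0, 42.5 and 33.4 CPM in Veh_N, 25.3, 22.6 and 28.9 CPM in Veh_LPS and 19.7, 26.4 and 22.8 CPM in D2HG_LPS. In these subunits the libraries with LPS were all below those without it. Mcm3 had 46.7, 52.2 and 44.7 CPM in Veh_N, 31.5, 30.9 and 30.4 CPM in Veh_LPS and 24.8, 28.2 and 26.3 CPM in D2HG_LPS, again without overlap. The log2 fold changes with LPS after vehicle were -1.0 ± 0.12 for Mcm2, -0.70 for Mcm7, -0.68 for Mcm4 and -0.63 for Mcm3 (edgeR, Benjamini-Hochberg adjusted p from 4.76e-06 to 0.00102). All 4 were called lower under each of the 4 scalings tried, though upper-quartile factors and library totals move all genes down against TMM.

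**Figure D2:**
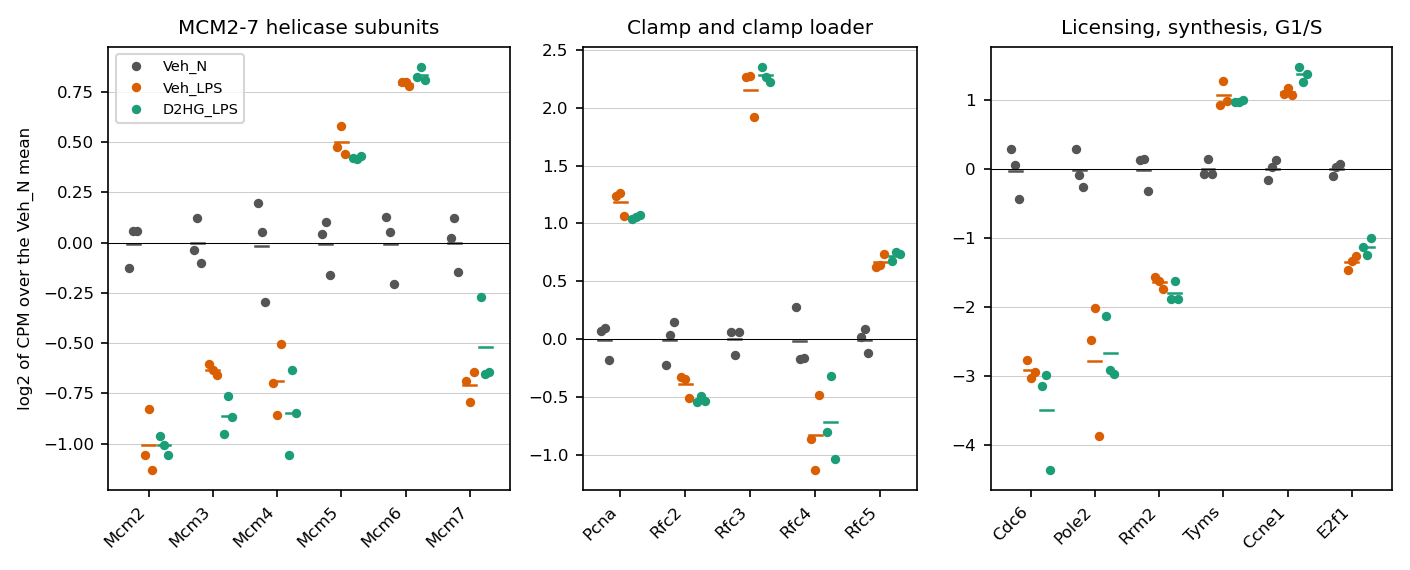
Log2 of each library's TMM-scaled CPM over the Veh_N mean (y axis) for the 6 helicase subunits (left), the clamp and the 4 clamp loader subunits among the members (middle) and 6 genes of licensing, synthesis and G1/S entry (right), with 1 point per library and a bar at each group's mean. Mcm5 and Mcm6 lie above 0 and Mcm2, Mcm3, Mcm4 and Mcm7 below it in all 6 libraries with LPS, and the Veh_LPS and D2HG_LPS points lie near each other.

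Of the 5 genes that turn the loaded ring into a helicase, 3 were called higher, 0 lower and 2 were not called, with a median of 0.37. Mcm10, which binds the ring and helps start unwinding, had 14.0, 16.5 and 12.5 CPM in Veh_N, 71.9, 67.6 and 59.9 CPM in Veh_LPS and 47.7, 54.6 and 50.7 CPM in D2HG_LPS. The 3 groups formed 3 separate ranges, with Veh_LPS highest. Mcm10 was 4.60-fold higher with LPS after vehicle, a log2 fold change of 2.20 ± 0.12 (edgeR, Benjamini-Hochberg adjusted p = 2.23e-09), and 1.54 with library totals. Gins2, a subunit of the 4-protein GINS complex, had 14.3, 16.0 and 15.6 CPM in Veh_N, 22.9, 26.3 and 19.8 CPM in Veh_LPS and 22.9, 29.2 and 26.4 CPM in D2HG_LPS. Its libraries with LPS were all above those without, a log2 fold change of 0.58 (edgeR, Benjamini-Hochberg adjusted p = 0.00134) that was -0.08 with library totals. Gins1 was called higher by 0.37 ± 0.15 (edgeR, Benjamini-Hochberg adjusted p = 0.0364), but the call was lost without any 1 of the Veh_N libraries or Veh_LPS replicate 1 or 2 (0.30 to 0.39), and the value was -0.30 with library totals. Gins4 (-0.23) and Cdc45 (-0.43), the partner of GINS in the active helicase, were not called. Gins3, the GINS subunit outside the members, was called lower at -0.56 (edgeR, Benjamini-Hochberg adjusted p = 0.0292), with overlapping libraries. Cdc45 ranged from 4.78 to 9.10 CPM in Veh_N and from 5.09 to 5.69 CPM in Veh_LPS, so its Veh_N libraries spanned the others.

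Among the polymerase and primase genes 3 of 7 were called lower, 0 higher and 4 were not called, with a median of -0.32. Pole2, the accessory subunit of leading-strand polymerase epsilon, had 4.69, 3.62 and 3.21 CPM in Veh_N, 0.691, 0.955 and 0.263 CPM in Veh_LPS and 0.878, 0.512 and 0.493 CPM in D2HG_LPS. Pold1, the catalytic subunit of polymerase delta, had 15.1, 14.9 and 14.7 CPM in Veh_N, 5.04, 5.83 and 4.55 CPM in Veh_LPS and 6.34, 6.74 and 6.41 CPM in D2HG_LPS. Prim1, the catalytic subunit of the primase that lays down RNA primers, had 10.6, 9.25 and 7.13 CPM in Veh_N, 5.33, 5.52 and 3.5 CPM in Veh_LPS and 6.24, 4.53 and 5.63 CPM in D2HG_LPS. None of the 3 genes had a library with LPS that reached the lowest library without it. Pole2 was 6.15-fold lower with LPS after vehicle, a log2 fold change of -2.62 ± 0.36 (edgeR, Benjamini-Hochberg adjusted p = 2.22e-05), on 3 to 9 counts per library in Veh_LPS. Pold1 fell by 1.54 ± 0.13 on the log2 scale (2.76e-07) and Prim1 by 0.93 (0.00156), both adjusted as above. The genes of polymerase alpha, which works with primase, kept overlapping ranges: Pola1 was at 0.06 (95% interval -0.47 to 0.59), Pola2 at 0.09 and Prim2 at -0.07, and Pole, the catalytic subunit of polymerase epsilon, at -0.32. Pola1, Pola2 and Prim2 fell to -0.61, -0.58 and -0.74 with library totals, where all were called lower. Outside the members, the polymerase genes Pole4 (0.59), Pole3 (0.42) and Pold3 (0.21) were called higher with TMM. Pold4 (-1.11) was called lower and Pold2 (0.19) was not called.

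The clamp, its loader and the genes that finish the lagging strand gave 4 of 9 higher, 3 lower and 2 not called, with a median of 0.02. Pcna, the ring that holds polymerases on DNA, had 125, 127 and 105 CPM in Veh_N, 280, 286 and 249 CPM in Veh_LPS and 245, 248 and 250 CPM in D2HG_LPS. Rfc3, a subunit of the loader, had 11, 9.55 and 11 CPM in Veh_N, 50.3, 50.6 and 39.6 CPM in Veh_LPS and 53.5, 50.5 and 48.9 CPM in D2HG_LPS. Both genes were well above their Veh_N range in all 6 libraries with LPS. Pcna was 2.28-fold higher with LPS after vehicle (log2 fold change 1.19 ± 0.09, edgeR, Benjamini-Hochberg adjusted p = 7.01e-08) and Rfc3 4.46-fold (2.16 ± 0.12, 3e-09). Rfc5, another loader subunit, had 16.0, 16.8 and 14.6 CPM in Veh_N and 24.4, 24.7 and 26.3 CPM in Veh_LPS, a log2 fold change of 0.67 that was -0.00071 with library totals. The other loader subunits among the members fell.

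Rfc4 had 7.86, 5.75 and 5.80 CPM in Veh_N and 3.56, 2.97 and 4.64 CPM in Veh_LPS, a log2 fold change of -0.78 (edgeR, Benjamini-Hochberg adjusted p = 0.00811). Rfc2 had 36.9, 44.0 and 47.7 CPM in Veh_N and 34.3, 33.9 and 30.3 CPM in Veh_LPS, a log2 fold change of -0.39 (0.00514). The loader genes thus held 2 members above and 2 below their levels without LPS, with no overlap of libraries in any of the 4. Rfc1, a loader subunit outside the members, was also lower without overlap, at -1.24 ± 0.09 (edgeR, Benjamini-Hochberg adjusted p = 7.1e-08). Lig1, the ligase that seals the fragments of the lagging strand, had 35.9, 36.1 and 34.6 CPM in Veh_N and 62.8, 61 and 52 CPM in Veh_LPS, a log2 fold change of 0.72 that was 0.05 and not called with library totals. Fen1, the nuclease that trims those fragments, had 31.8, 35.6 and 34.9 CPM in Veh_N and 24.3, 27.1 and 24.0 CPM in Veh_LPS, a log2 fold change of -0.44 (edgeR, Benjamini-Hochberg adjusted p = 0.00165). Neither gene's groups overlapped, so the enzymes of this step moved apart. Rpa1 (-0.16) and Rpa2 (0.02), subunits of the protein that coats single-stranded DNA, were not called, and Rpa2 stood at -0.65 and was called lower with library totals.

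Of the 5 genes that supply deoxynucleotides, 1 was higher, 2 lower and 2 were not called, with a median of -0.09. Rrm2, the small subunit of ribonucleotide reductase, whose protein is made in S phase, had 32.1, 32.7 and 23.6 CPM in Veh_N, 9.98, 9.55 and 8.84 CPM in Veh_LPS and 8, 9.56 and 7.99 CPM in D2HG_LPS. Every library with LPS was below every library without it, a 3.13-fold fall with LPS after vehicle (log2 fold change -1.64 ± 0.15, edgeR, Benjamini-Hochberg adjusted p = 3.93e-07). Rrm1, the large subunit of the same enzyme, was at -0.07 (95% interval -0.29 to 0.15) and was not called. Tyms, thymidylate synthase, had 7.38, 8.54 and 7.37 CPM in Veh_N, 14.8, 18.8 and 15.4 CPM in Veh_LPS and 15.2, 15.2 and 15.5 CPM in D2HG_LPS. All 6 libraries with LPS were above the 3 without, a log2 fold change of 1.07 ± 0.13 (edgeR, Benjamini-Hochberg adjusted p = 7.87e-06). Tk1, the thymidine kinase of the salvage route to the same nucleotide, had 10.2, 12.0 and 14.6 CPM in Veh_N and 9.38, 8.49 and 8.4 CPM in Veh_LPS. Its log2 fold change of -0.48 (edgeR, Benjamini-Hochberg adjusted p = 0.02) was no longer called without Veh_N replicate 3 or Veh_LPS replicate 2 or 3 (-0.45 to -0.34). Dut, which clears dUTP, was at -0.09 and was not called.

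All 3 members that rebuild chromatin behind the fork were called lower. Uhrf1, which brings the maintenance DNA methyltransferase to newly copied DNA, had 19.3, 21.8 and 13.9 CPM in Veh_N, 5.73, 4.24 and 5.34 CPM in Veh_LPS and 5.46, 3.93 and 4.14 CPM in D2HG_LPS. Chaf1a, the large subunit of chromatin assembly factor 1, had 22.3, 22.9 and 20 CPM in Veh_N, 15.8, 12.1 and 12.3 CPM in Veh_LPS and 11, 12.1 and 11.8 CPM in D2HG_LPS. Chaf1b, its middle subunit, had 14.1, 15.8 and 14.7 CPM in Veh_N, 12.0, 11.2 and 10.7 CPM in Veh_LPS and 10.5, 8.88 and 10.9 CPM in D2HG_LPS. The groups with and without LPS did not overlap in any of them. All were lower under each of the 4 scalings, though upper-quartile factors and library totals move all genes down against TMM. The log2 fold changes with LPS after vehicle were -1.85 ± 0.20 for Uhrf1, -0.70 for Chaf1a and -0.40 for Chaf1b (edgeR, Benjamini-Hochberg adjusted p = 2.13e-06, 0.000252 and 0.0104). Outside the members, chromatin genes lay on both sides. Asf1a (1.92) and Rbbp4 (0.23) were called higher, and Asf1b (-1.01), Nasp (-0.27) and Dnmt1 (-1.53) were called lower.

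The regulators of entry into S phase gave 1 gene higher, 1 lower and 1 not called. Ccne1, which encodes cyclin E1, had 5.10, 5.81 and 6.27 CPM in Veh_N, 12.2, 12.9 and 12.0 CPM in Veh_LPS and 15.9, 13.7 and 14.9 CPM in D2HG_LPS. E2f1, an activating E2F factor, had 33.2, 36.3 and 37.6 CPM in Veh_N, 13.0, 14.2 and 14.9 CPM in Veh_LPS and 16.3, 15.0 and 17.9 CPM in D2HG_LPS. Cyclin E1 was above its Veh_N range and E2f1 below its own in all 6 libraries with LPS. Ccne1 was 2.16-fold higher with LPS after vehicle (log2 fold change 1.11 ± 0.13, edgeR, Benjamini-Hochberg adjusted p = 6.05e-06) and E2f1 2.54-fold lower (-1.34 ± 0.11, 1.41e-07). Ccne2, which encodes cyclin E2, ranged from 6.90 to 14.5 CPM in Veh_N and from 9.23 to 9.54 CPM in Veh_LPS. It was at -0.12 and not called, with its Veh_N libraries on both sides of the others.

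Since the direction of small changes rests on the scaling, ratios of raw counts between members of the same library were also read, in which no scaling enters. The 6 pairs were picked after their values were seen, so they are a description, and because transcript length enters each ratio only its change between groups is read. The ratio of Mcm6 to Mcm2 counts was 3.48 ± 0.618 in Veh_N, 12.0 ± 1.22 in Veh_LPS and 12.4 ± 0.411 in D2HG_LPS (mean ± SD, n = 3). That of Mcm5 to Mcm3 was 0.749 ± 0.0374, 1.64 ± 0.0832 and 1.83 ± 0.121 in the same order. For both pairs of helicase subunits the balance shifted without overlap of libraries. Rfc3 to Rfc4 was 1.65 ± 0.244 in Veh_N, 13.2 ± 4.31 in Veh_LPS and 13.2 ± 3.09 in D2HG_LPS, and Rfc5 to Rfc2 was 0.373 ± 0.0645, 0.769 ± 0.0853 and 0.873 ± 0.0196. Ccne1 to E2f1 was 0.160 ± 0.00657, 0.885 ± 0.0702 and 0.906 ± 0.0709. Pcna to Rrm2, genes both commonly used to mark S phase, was 4.07 ± 0.316, 28.7 ± 1.05 and 29.3 ± 2.91. In each pair all 6 libraries with LPS were above the 3 without.

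The TMM factors were 1.338 to 1.351 in Veh_N and 0.831 to 0.887 in the LPS groups, so libraries with LPS are scaled upward relative to their totals. Against TMM, upper-quartile factors moved the median gene of Veh_LPS over Veh_N by -0.32 and library totals moved it by -0.67. The share of all calls that were higher was 47.4% with TMM, 33.2% with upper-quartile factors and 21.8% with library totals. Mcm10, Rfc3, Pcna, Ccne1 and Tyms were called higher under all 4 scalings. The other 8 higher genes were not called with library totals, and 5 of them turned below 0 there (Cdt1, Mcm5, Gins1, Gins2 and Rfc5). Of the 18 lower genes 17 were called lower under all 4 scalings, the exception being Orc6, which was not called with the median-of-ratios factors. Upper-quartile factors and library totals move all genes down, so they could hardly undo a lower call. Only the median-of-ratios factors moved the median gene up, by 0.06. The kept lower calls therefore cannot be set against the lost higher calls. Leaving out any 1 library kept 27 of the 31 calls, and those of Orc1, Orc6, Gins1 and Tk1 were lost as given above.

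**Figure D3:**
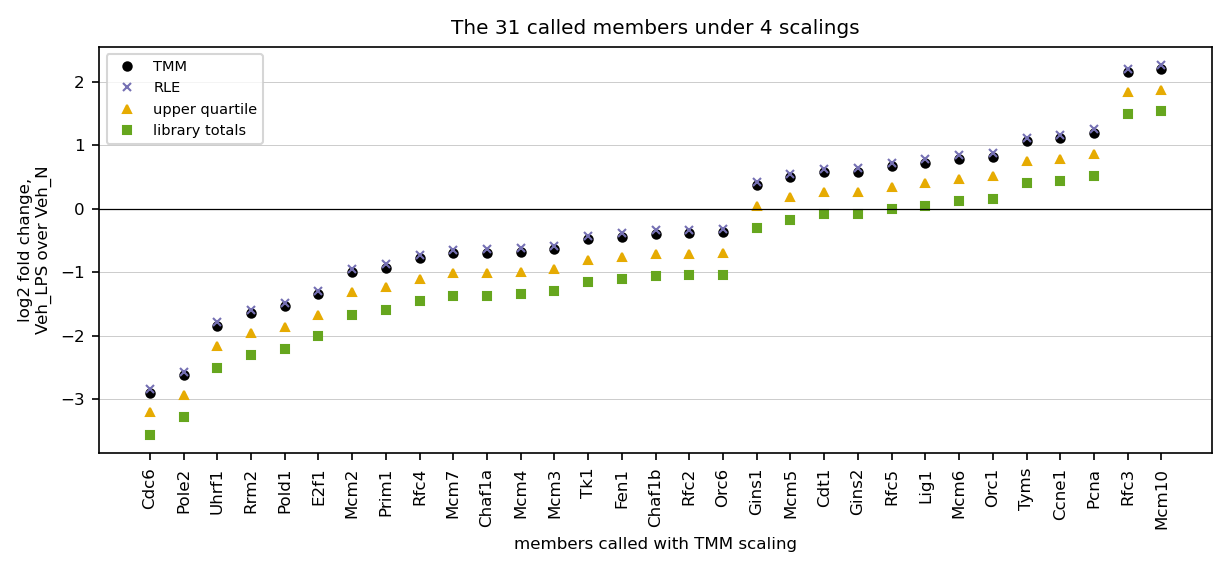
Log2 fold change of Veh_LPS over Veh_N (y axis) for the 31 genes called with TMM (x axis, in order of that value), with 1 symbol for each of 4 scalings. For each gene the symbols of upper-quartile factors and library totals lie below that of TMM. The symbol of the median-of-ratios factors (RLE) lies slightly above it. With every scaling 5 genes lie above 0 and are called, while 5 others cross 0. Orc1, Mcm6 and Lig1 stay above 0 but are not called with library totals, and the genes at the left lie below 0 throughout.

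Some members share exons with another gene, and since no source used here gives the strand setting of the counts, reads of overlapping genes may have been counted for both. In the GENCODE vM21 annotation 13 members share exon bases with a protein-coding gene. The longest stretches shared with a protein-coding gene on the opposite strand were 4648 bases between Chaf1a and Ubxn6, 2758 bases between Gins2 and Gse1, 952 bases between Rfc2 and Lat2 and 609 bases between Ccne2 and Ints8. Ubxn6 and Gse1 were both at -0.37 with LPS after vehicle, Lat2 at -1.15 and Ints8 at 1.11. Chaf1a, Rfc2, Rfc4 (with Eif4a2, -1.19), Mcm7 (with Ap4m1, -2.36) and Tk1 (with Afmid, -1.11) fell beside a partner that was lower too, and Rfc5 rose beside Wsb2 (0.41), which was higher and shares 499 bases on the opposite strand. The values of these members are uncertain to that extent. Mcm7 also shares 64 bases on the opposite strand with Cops6, which was at 0.37. Pole2 shares 245 bases with the protein-coding gene Gm49384 on the same strand, where no strand setting would separate the reads. Fen1 shares 1909 bases on the opposite strand with the antisense gene Gm10143. Pcna and Tyms have processed pseudogenes in the annotation that may share their reads. The members Mcm2, Mcm6, Mcm10, Rfc3, Cdc6, Rrm2, Uhrf1, Ccne1 and E2f1 shared no exon base with a protein-coding gene.

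Genes beside the members in the same processes were read from 4 further lists. Of 43 other genes of the replication machinery, 12 were called higher and 23 lower in Veh_LPS than in Veh_N, with a median of -0.50. Mcmbp, which binds the helicase subunits off chromatin, was at 2.33 ± 0.08, and Timeless, of the complex that protects the fork, at 2.09 ± 0.11. Dna2, a nuclease of fragment processing, was at -3.24 ± 0.29, Clspn, the partner of Timeless in checkpoint signalling, at -2.85 ± 0.23, and Gmnn, the inhibitor of Cdt1, at -1.91 ± 0.14. So this wider list also held genes on both sides, but with more of them lower and a median below that of the members (-0.20). Beside these lists, 35% of all tested genes were called higher and 38.9% lower. Of 17 tested genes of nucleotide metabolism 6 were higher and 7 lower (median -0.25), led by Nt5c3 (4.76), the deoxynucleotide triphosphatase Samhd1 (3.28) and deoxycytidine kinase Dck (2.79) above, and by the pyrimidine enzyme Umps (-2.33) and mitochondrial thymidine kinase Tk2 (-2.01) below. Of 33 further G1/S regulators 11 were higher and 15 lower (median -0.22). Cyclin D2 (Ccnd2, 5.57), the retinoblastoma relative Rbl1 (2.99) and the kinase inhibitor p21 (Cdkn1a, 2.83) were above. E2f7 (-4.25), E2f2 (-3.92) and Tfdp2 (-2.64), which encodes a partner of E2F proteins, were below. The retinoblastoma family and the kinase inhibitors were divided. Rb1 (-1.47), Rbl2 and the inhibitors Cdkn1b (-1.41), Cdkn2b (-1.22) and Cdkn2c (-2.42) were called lower. The inhibitor Cdkn2d (1.86) was called higher, and Cdkn1c and Cdkn2a were not called.

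Mitotic genes, in contrast to the members, were nearly all on one side. Of 24, 21 were called lower, 2 higher and 1 was not called, with a median of -1.38, and with library totals 22 were lower and 1 higher. Cdc20, the activator of the anaphase-promoting complex, was at -3.43 ± 0.17 and Kif23, a motor of cell division, at -3.25 ± 0.15 (edgeR, Benjamini-Hochberg adjusted p = 1.01e-09 and 4.38e-10). The spindle factor Tpx2 (1.31) and the kinetochore motor Cenpe (0.77, and 0.10 without a call with library totals) were the 2 higher genes. The difference between the lists was not tested. The lists were written with earlier results of these data known, so their counts are descriptions.

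**Figure D4:**
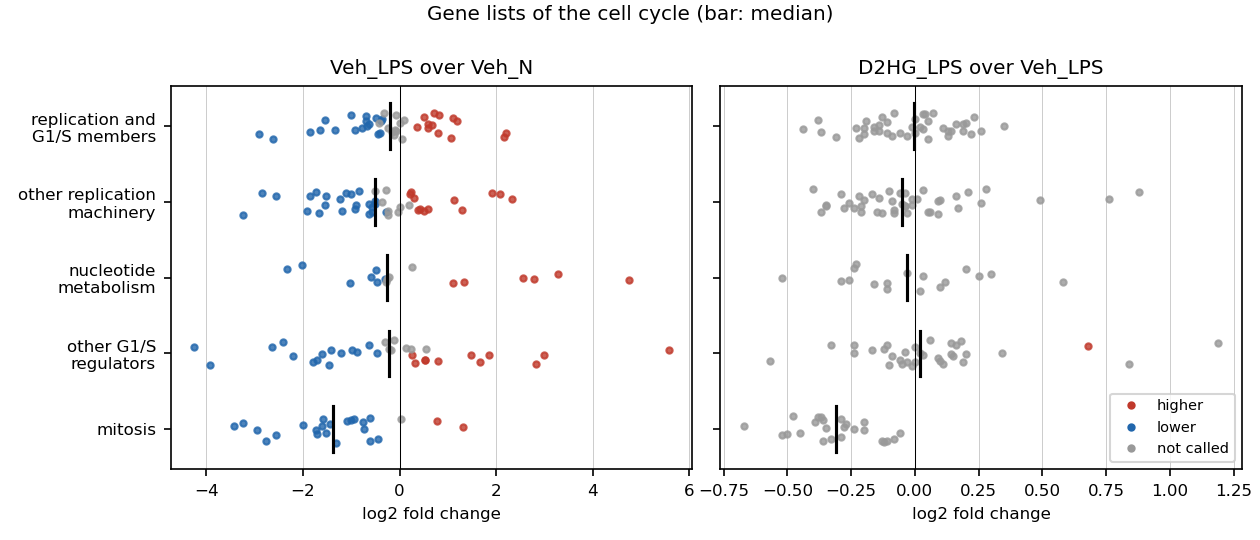
Log2 fold change (x axis) of every tested gene in the 42 members and the 4 further lists (y axis), for Veh_LPS over Veh_N on the left and D2HG_LPS over Veh_LPS on the right; points are genes coloured by call and bars are list medians. On the left the members spread over both sides with a median of -0.20 while the mitotic genes gather below 0 with a median of -1.38, and on the right 1 gene of all lists, Ccnd1, is called.

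The comparison of D2HG_LPS with Veh_LPS asks what the ester given before LPS changed. With edgeR's quasi-likelihood test and Benjamini-Hochberg adjusted p-values 0 of the 42 members were called, against a background of 2.11% of all tested genes (1.15% higher and 0.955% lower). Before adjustment 4 members had a p below 0.05, Pold1 higher and Mcm10, Mcm3 and Rrm1 lower. The share of all tested genes below that unadjusted p was not counted, so this number is a description. DESeq2 called 1, Mcm10, and so did edgeR fitted on only these groups. The median log2 fold change was -0.01, with 0.01 for all genes, and the range was -0.44 to 0.35. The libraries of the groups did not overlap in 8 members, 4 higher and 4 lower, which is 19% where 24.2% of all tested genes did not overlap (11.8% higher and 12.4% lower), a share below the background and so no result about these genes.

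Mcm10 came closest to a call. Its 3 libraries with the ester (47.7 to 54.6 CPM) were all below the 3 of Veh_LPS (59.9 to 71.9 CPM) and all above Veh_N. The log2 fold change was -0.38 ± 0.11 (95% interval -0.62 to -0.14), with a Benjamini-Hochberg adjusted p = 0.105 by edgeR, 0.0196 by DESeq2 and 0.0433 by edgeR on only these groups. Over the 17 alternatives the adjusted p ran from 0.0196 to 0.35 and the value from -0.45 to -0.32. The other members without overlap were Mcm3 (-0.22), Rrm1 (-0.23) and Mcm5 (-0.08), which were lower, and Pold1 (0.35), Ccne1 (0.26), E2f1 (0.22) and Mcm6 (0.04), which were higher. Pold1 had an interval of 0.03 to 0.66 and an adjusted p = 0.278, and E2f1 one of -0.03 to 0.47 and 0.387 (edgeR, Benjamini-Hochberg). For Pold1 and E2f1 the ester libraries lay between Veh_LPS and Veh_N, and for Ccne1 they lay further from Veh_N than Veh_LPS did.

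A missing call does not show that the ester left these genes as they were, and the intervals give what the data allow. In 32 members the 95% interval lay within a 1.5-fold change in either direction, and in 40 within a 2-fold change. The remaining 2, Cdc6 (-1.42 to 0.54) and Pole2 (-1.07 to 1.10), had fewer than 10 counts in each library with LPS. Intervals were narrow for abundant genes such as Mcm6 (-0.14 to 0.23), Pcna (-0.32 to 0.06) and Mcm5 (-0.27 to 0.12). Among the further lists 1 gene was called, Ccnd1, which encodes cyclin D1 and links growth signals to the G1 kinases. It had 187, 177 and 124 CPM in Veh_N, 302, 289 and 256 CPM in Veh_LPS and 455, 467 and 437 CPM in D2HG_LPS, with the 3 groups in 3 separate ranges. Its log2 fold change with the ester was 0.68 ± 0.13 (edgeR, Benjamini-Hochberg adjusted p = 0.017), and the call was lost without any 1 of the D2HG_LPS libraries or Veh_LPS replicate 1 (adjusted p up to 0.0898). The 24 mitotic genes were all below 0, with a median of -0.31, but edgeR called 0 of them and DESeq2 called 2. At an unadjusted p below 0.05 there were 10, and the share of all tested genes there was not counted. With library totals 23 of the 24 were below 0.

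The groups with LPS can each be set beside Veh_N, and since both comparisons use the same Veh_N libraries their values are only given side by side. Against Veh_N, D2HG_LPS had 12 members higher and 19 lower, where 72.6% of all tested genes were called (35.4% higher and 37.2% lower), and Veh_LPS had 13 higher and 18 lower. The call was the same for 36 of the 42. The other 6 were Orc1, Orc6 and Tk1, called with LPS after vehicle only, and Pole, Rpa1 and Rrm1, called lower with LPS after the ester only. In none of these 6 was the difference between the LPS groups itself called (edgeR, Benjamini-Hochberg adjusted p from 0.296 to 0.96). The log2 fold changes were 2.16 with vehicle and 2.28 with the ester for Rfc3, 1.19 and 1.06 for Pcna, -1.64 and -1.79 for Rrm2, and -2.90 and -3.34 for Cdc6. Mcm10 was at 2.20 and 1.82.

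Within groups the members did not scatter evenly over libraries. Veh_N replicate 3, the least deep library, had the lowest of the 3 levels in 27 of 42 members. Their median deviation there was -0.11 on the log2 scale from the group's mean, with -0.10 for the mitotic genes and -0.023 for all tested genes. Veh_LPS replicate 3 had the lowest in 24 members (median -0.07, with 0 for the mitotic genes). The share of all genes lowest in each library was not counted. In Veh_N the members with the widest spread relative to their mean were Ccne2 (10.2 ± 3.95 CPM), Pola1 (19.5 ± 6.71), Orc1 (2.70 ± 0.852) and Cdc45 (7.30 ± 2.25; mean ± SD, n = 3). Of these only Orc1 was called with LPS after vehicle, and Cdc45 was called lower without Veh_N replicate 3 (-0.64).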

How the data were processed

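Per the labels' protocols, the RNA libraries were strand-specific (KAPA mRNA HyperPrep). The authors deposited raw read counts for 35745 RefSeq transcripts. Per the submitters' processing notes the tools were STAR 2.5.2b and DESeq2, with builds mm10 and mm9. No source used here names the counting program, its annotation or its strand setting. Symbols came from a RefSeq table (35435 transcripts) and GENCODE vM21 (193). The 117 unmatched transcripts held 0.676% to 2.372% of counts and were left out. The transcript with most counts stood for each gene, and 17 members had several. Intervals cover the spread between these libraries, and depth limits genes with few counts.

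The test was edgeR 4.0.16 (R 4.3.3) on the counts (filterByExpr, TMM, glmQLFit with robust=TRUE over 9 libraries, group as the only term, glmQLFTest, two-sided), with Benjamini-Hochberg adjustment within each of 3 comparisons. The test was checked on simulated data. Alternatives were DESeq2 1.42.0, other scalings, no low count filter, summed transcripts, a fit on only the groups compared, a replicate block and each library left out. Replicates differed by more than counting noise (chi-square per degree of freedom 2.78 to 23.7). All members were named, with library values for those that led each role, and up to 4 called genes a direction from each further list. Relatives of named genes were given beside these. The members, lists and this rule were chosen with earlier results of these data known.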

Additional observations from a re-analysis of the deposited data

How the results depend on the processing

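With library totals in place of TMM, Veh_LPS over Veh_N gave 5 members higher and 29 lower (all genes 2112 and 7589), D2HG_LPS over Veh_N 6 and 29 (2178 and 7283), and D2HG_LPS over Veh_LPS 212 higher and 73 lower genes. Upper-quartile factors gave 8 members higher and 25 lower for Veh_LPS over Veh_N (all genes 2956 and 5960). The sign turned with library totals for Cdt1 (-0.09), Mcm5 (-0.17), Gins1 (-0.30), Gins2 (-0.08), Pola1 (-0.61), Pola2 (-0.58), Rfc5 (-0.00071) and Rpa2 (-0.65, and -0.30 with upper-quartile factors) in Veh_LPS over Veh_N, and for Mcm5 (-0.18), Gins1 (-0.24), Pola2 (-0.47) and Rpa2 (-0.46) in D2HG_LPS over Veh_N. These turns follow from the scaling factors, which move all genes by the same amount. For D2HG_LPS over Veh_LPS, DESeq2 called 1 member and 338 genes lower, and edgeR on only these groups 1 and 253, against 0 and 111. Leaving out 1 library at a time gave 35 to 230 genes higher (134 with all) and 29 to 271 lower (fewest without D2HG_LPS replicate 1, most without Veh_N replicate 1), and 0 members in either direction; the cause was not tested.

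With the replicate block, D2HG_LPS over Veh_LPS gave 53 genes higher and 40 lower, and 0 members. The members were then 12 higher and 17 lower for Veh_LPS over Veh_N (all genes 3945 and 4338). For D2HG_LPS over Veh_N they were 11 and 18 (all genes 3973 and 4144). The replicate numbers share no stated animal or day. The deviations of same-numbered libraries from their group means correlated at -0.698 to 0.406. Deviations within a group are tied to each other through its mean. These correlations therefore cannot decide whether the numbers pair the samples. Few counts limited Cdc6 and Pole2.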
